A study of Nicotiana benthamiana with 12 samples.

Results

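The circadian clock and light signalling genes of Nicotiana benthamiana leaves were followed through a short heat exposure. They were taken from the deposited gene table by their homology text, which had to name a cryptochrome, phototropin, pseudo-response regulator or response regulator-like protein, GIGANTEA, EARLY FLOWERING, LHY or CCA1, CONSTANS, COP1, ADAGIO, TIMING OF CAB or FLOWERING LOCUS T, with texts containing the abbreviation bHLH left out. This gave 94 of 40763 genes, of which 86 had enough counts to be tested and 8 did not. The 8 were 4 CONSTANS-like genes, 2 COP1-interacting genes, 1 GIGANTEA gene and 1 FLOWERING LOCUS T gene, each at 4.76 CPM (counts scaled to library size) or less in every library. One gene with a spelled-out basic helix-loop-helix text stayed in. No member carried the text of a phototropin, an ADAGIO protein or TOC1, and those genes are not analysed here.

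Plants grown for 5 weeks in soil under long days were left at 23 °C (mock) or held at 37 °C for 1 h (heat), and their leaves were used for total RNA and for polysome RNA, that is, transcripts isolated together with ribosomes. The 4 groups, mock total, heat total, mock polysome and heat polysome RNA, have 3 libraries each, which the submitters call biological replicates. Whether they came from separate plants or pools is not stated in the labels, so p-values measure the spread between these libraries. Libraries are given below in the order of their title numbers, which run from 5 to 7 for mock total and heat polysome libraries and from 2 to 4 for the other two groups. Each comparison of 2 groups below therefore sets numbers 5 to 7 against 2 to 4. A difference between those sets of libraries cannot be told apart from heat or fraction in such a comparison.

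In plants, blue light is sensed by cryptochromes, which restrain the COP1-SPA ubiquitin ligase, and that ligase marks transcription factors of light responses for destruction. The circadian clock is a set of interlocked repressors, best known from Arabidopsis: LHY and CCA1 act in the morning, the pseudo-response regulators follow through the day, and GIGANTEA and the evening complex with ELF3 act towards dusk. Clock and light signals meet at CONSTANS, a zinc finger transcription factor that switches on FLOWERING LOCUS T (FT), the mobile flowering signal made in leaves. Temperature is a known input to this network, and ELF3 acts as a thermosensor in Arabidopsis.

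Total counts were 10724854 to 14485118 per library. Mock total libraries 6 and 7 stood apart from library 5 in transcripts of plastid genome type, whose summed level was 3020 CPM in library 5, 11900 in library 6 and 11400 in library 7, against 2490 to 2710 in heat total RNA. Results were therefore also obtained without libraries 6 and 7. Leaf identity was clear: 89 genes of Rubisco small chain and chlorophyll a-b binding proteins summed to 117000 to 149000 CPM in total RNA and 209000 to 419000 CPM in polysome RNA, while 2 floral homeotic genes summed to 0.183 to 3.52 CPM. All CPM sums here carry the TMM factors, 1.22 to 1.46 in total RNA and 0.562 to 0.963 in polysome RNA. A lower factor gives a higher CPM for the same share of counts. Other marker lists also moved with treatment. Summed levels of 5 phloem and xylem genes were 31.8 to 46.4 CPM in mock total, 71.2 to 76.4 in heat total, 61.3 to 84.9 in mock polysome and 115 to 176 in heat polysome RNA. For 4 pollen genes the sums were 46.8 to 67.2 CPM in total RNA and 37 to 81.3 in polysome RNA, and for 84 trichome genes 247 to 284 and 236 to 336. Every phloem, xylem, pollen and floral marker had reads in each group, and their part in the results below was not tested.

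Levels in CPM are not divided by gene length, so they are compared between libraries and not between genes. A change is given as a log2 fold change ± SE, its p comes from the quasi-likelihood test of edgeR, adjusted by the Benjamini-Hochberg method over 34325 genes, and "rose" and "fell" are kept for an adjusted p under 0.05. Groups without overlap were common among all genes tested. In total RNA 32.2% had every heat value above every mock value and 34.3% had every heat value below. In polysome RNA these shares were 29.2% and 28.6%. Each library's lowest count is 1, so a value near 0.1 CPM can stand for no read at all. Many members share their homology text, such as 6 genes with that of CONSTANS-LIKE 4 and 6 with that of ELF3. Near-identical copies could have shared reads, which makes the value of a single copy uncertain. In leaf RNA, fewer cells of a type and less RNA per cell cannot be told apart.

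Total RNA was compared between heat and mock libraries as relative transcript levels after 1 h. There 12 of the 86 members rose, 33 fell and 41 did not pass the test, so that 52.3% changed, against 54.1% of all genes tested. The 14% that rose compare with 25.7% of all genes, and the 38.4% that fell with 28.3%. The median log2 change was -0.35 over the members and -0.08 over all genes. In polysome RNA 13 members rose (15.1%, against 28.1% of all genes) and 40 fell (46.5%, against 28%), in all 61.6% against 56.0%, with medians of -0.69 and -0.06. Of the members, 29 fell in both fractions, 9 rose in both, and 1 rose in total RNA and fell in polysome RNA. These joint counts were not made for all genes, so they describe the members only. With mock total libraries 6 and 7 left out, 10 of 89 tested members rose in total RNA (11.2%, against 17.8% of all genes in that fit) and 30 fell (33.7%, against 17.2%).

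**Figure D1:**
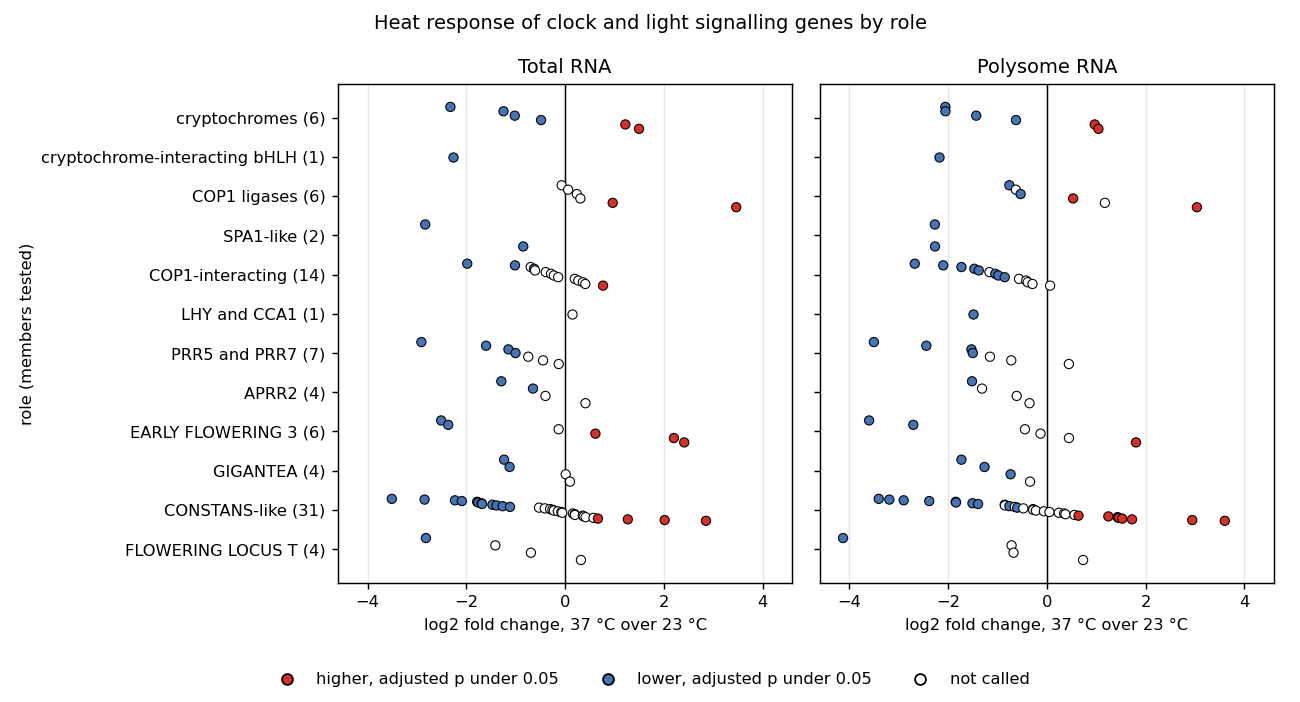
Log2 fold change of heat against mock for each tested member, by role, for total and polysome RNA (points, 1 per gene, red where higher and blue where lower at an adjusted p under 0.05, open otherwise). Points are fitted values, which for genes with few reads in a group are not bounds. In both fractions the cryptochromes lie on either side of 0, and no pseudo-response regulator among PRR5 and PRR7 rose.

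Among the photoreceptors, all 6 cryptochrome genes passed the test in both fractions, against 54.1% of all genes in total RNA and 56.0% in polysome RNA. In each fraction 2 went upward and 4 downward, and all 6 carry the photolyase domain text. The cryptochrome 1 gene Niben101Scf01167g05010.1 had 74.9, 77.3 and 57.4 CPM in mock total RNA and 163, 164 and 160 CPM in heat total RNA. Polysome RNA held 25, 44.1 and 33.7 CPM in mock and 83.9, 62 and 56 CPM in heat. Heat libraries were above mock libraries in both fractions without overlap, and the gene rose by 1.22 ± 0.20 in total RNA (adjusted p = 9e-05) and 0.97 ± 0.20 in polysome RNA (adjusted p = 0.00076). A second copy, Niben101Scf02537g15006.1, went from 56.5, 57.5 and 46.6 CPM to 151, 153 and 149 CPM in total RNA, again without overlap. Its log2 change was 1.50 ± 0.19 there (adjusted p = 8.6e-06) and 1.04 ± 0.20 in polysome RNA (adjusted p = 0.0003).

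The other cryptochromes moved the opposite way. Niben101Scf01980g09001.1, also annotated as cryptochrome 1, had 17.3, 15.1 and 13.4 CPM in mock total RNA and 2.92, 3.55 and 2.68 CPM after heat. Its polysome values were 4.57, 9.39 and 8.51 CPM in mock and 2.09, 1.48 and 1.87 CPM in heat, so every heat library was below every mock library in each fraction. It fell by 2.32 ± 0.24 in total RNA (adjusted p = 7.2e-07) and by 2.05 ± 0.29 in polysome RNA (adjusted p = 1.9e-05). The fourth cryptochrome 1 gene, Niben101Scf02751g04010.1, had 37.5, 28.6 and 28.5 CPM in mock total RNA and 13.3, 13.4 and 13 CPM in heat total RNA. Its polysome values were 44, 45.9 and 46.9 CPM in mock and 11.3, 11.4 and 10.2 CPM in heat. The log2 change was -1.25 for total RNA and -2.05 for polysome RNA (adjusted p = 1.8e-06 and 1e-08). Both cryptochrome 2 genes fell in both fractions. For Niben101Scf06017g01010.1 the log2 change was -1.02 ± 0.17 in total RNA (adjusted p = 9.3e-05), whereas for Niben101Scf06779g00008.1 it was -0.49 ± 0.19 (adjusted p = 0.044), a call that 10 of the 12 fits with 1 library left out did not keep. The cryptochrome-interacting basic helix-loop-helix gene Niben101Scf00226g02002.1, whose Arabidopsis counterparts are transcription factors bound by cryptochrome 2, fell by 2.28 ± 0.26 in total RNA (adjusted p = 2.7e-06) and by 2.18 ± 0.29 in polysome RNA (adjusted p = 1.2e-05).

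**Figure D2:**
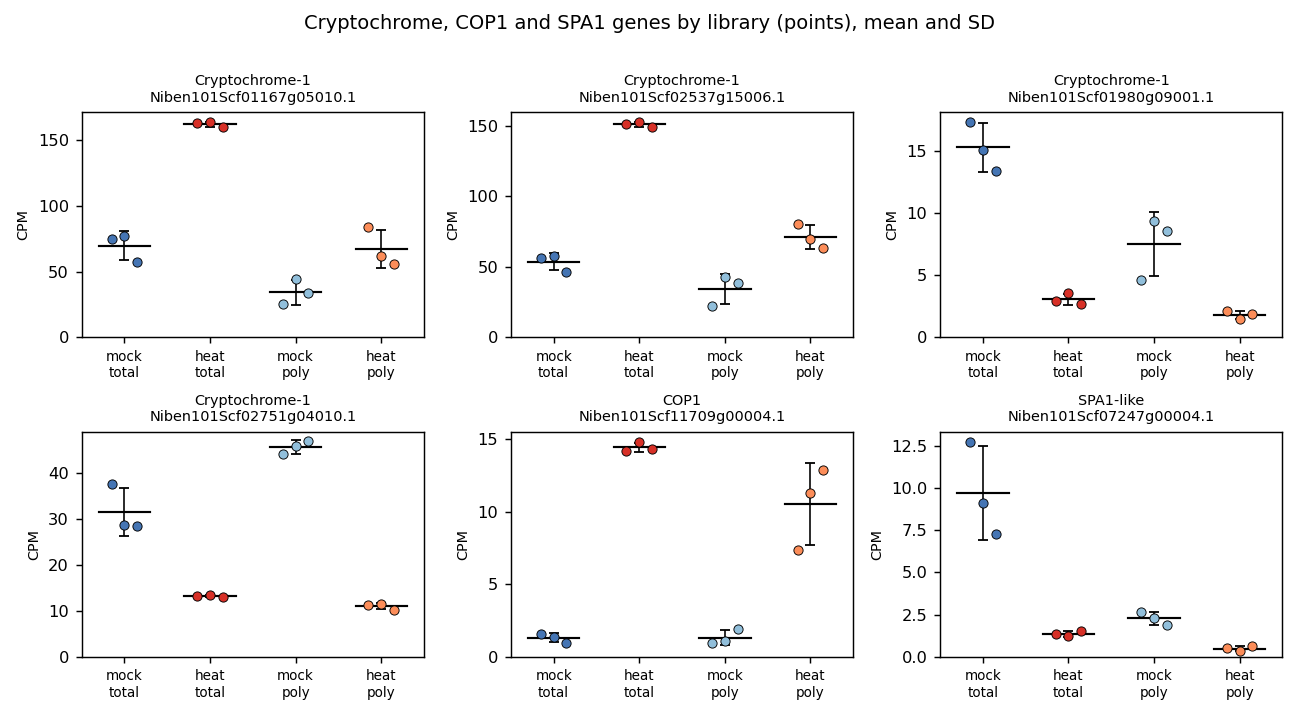
CPM of 4 cryptochrome 1 genes, a COP1 gene and an SPA1-like gene in each library (points), with the mean and SD of 3 libraries (bars) for mock total, heat total, mock polysome and heat polysome RNA. The cryptochrome 1 genes Niben101Scf01167g05010.1 and Niben101Scf02537g15006.1 and the COP1 gene are higher after heat in both fractions, and the other 3 genes are lower.

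COP1 is the ubiquitin ligase of light signalling, and SPA1 is its partner. Of 6 COP1 ligase genes, 2 rose (33.3%, against 25.7% of all genes) and none fell (against 28.3%) in total RNA. In polysome RNA 2 rose (33.3%, against 28.1%) and 2 fell (33.3%, against 28%). The largest change was in Niben101Scf11709g00004.1, with 1.59, 1.35 and 0.961 CPM in mock total RNA and 14.2, 14.8 and 14.3 CPM in heat total RNA. Polysome RNA held 0.951, 1.07 and 1.9 CPM in mock and 7.38, 11.3 and 12.9 CPM in heat. No heat value overlapped a mock value, and the gene rose by 3.46 ± 0.26 in total RNA (adjusted p = 2e-08) and 3.04 ± 0.29 in polysome RNA (adjusted p = 2.4e-07). The other riser, Niben101Scf01556g02003.1, rose by 0.96 ± 0.20 in total RNA (adjusted p = 0.00077), and with mock total libraries 6 and 7 left out the change was 0.67 (adjusted p = 0.075). Niben101Scf03985g02026.1 and Niben101Scf08597g01031.1 fell in polysome RNA, with log2 changes of -0.76 ± 0.26 and -0.53 ± 0.18 (adjusted p = 0.02 for each). Each of these calls was lost in 2 of the 12 fits with 1 library left out. The polysome rise of Niben101Scf01556g02003.1, 0.53 with all libraries, was lost in 3 of the 12. The WD40 repeat text, that of the substrate-binding part of COP1, is on 5 of the 6 COP1 genes and on both SPA1-like genes.

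Both SPA1-like genes fell in both fractions. Niben101Scf07247g00004.1 had 12.7, 9.1 and 7.24 CPM in mock total RNA and 1.32, 1.2 and 1.52 CPM in heat total RNA. Its polysome values were 2.66, 2.29 and 1.9 CPM in mock and 0.492, 0.317 and 0.622 CPM in heat. Every mock value was above every heat value of the same fraction, and the gene fell by 2.83 ± 0.26 in total RNA (adjusted p = 2.1e-07) and by 2.27 ± 0.39 in polysome RNA (adjusted p = 0.00013). Niben101Scf00470g03014.1 had 33.2, 21.8 and 13.7 CPM in mock total RNA, a spread in which library 5 was highest, and 13.5, 11.8 and 12.7 CPM in heat total RNA. It fell by 0.85 ± 0.25 there (adjusted p = 0.0088). Without mock total library 5 the change was -0.46 (adjusted p = 0.092), and without libraries 6 and 7 it was -1.35 (adjusted p = 0.00032). In polysome RNA the same gene went from 26, 28.5 and 34.4 CPM to 5.04, 5.38 and 8.09 CPM and fell by 2.26 ± 0.28 (adjusted p = 4.5e-06).

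The 14 tested genes named for binding COP1 included 3 that fell and 1 that rose in total RNA, and 8 that fell and 0 that rose in polysome RNA. The falls are 21.4% of the class in total RNA, against 28.3% of all genes, and 57.1% in polysome RNA, against 28%. Their median log2 change was -0.26 for total RNA and -1.01 for polysome RNA. COP1-interacting protein 7 is a regulator of light-responsive genes in Arabidopsis. Its copy Niben101Scf04384g00008.1 had 32.9, 35.2 and 28.4 CPM in mock total and 28.1, 25.5 and 28.7 CPM in heat total RNA, ranges that overlap. In polysome RNA its 29.9, 24.1 and 28.1 CPM in mock were all above the 11.3, 15.5 and 18.5 CPM in heat, with a log2 change of -0.85 ± 0.17 (adjusted p = 0.00061). The COP1-interacting-like gene Niben101Scf04926g06004.1 was the member that went opposite ways in the 2 fractions. It had 8.44, 9.16 and 8.71 CPM in mock total and 14.2, 14.9 and 15.7 CPM in heat total RNA, against 5.99, 7.1 and 7.84 CPM in mock polysome and 2.95, 3.27 and 4.36 CPM in heat polysome RNA. Neither pair of groups overlapped, and the log2 change was 0.77 ± 0.16 in total RNA (adjusted p = 0.00085) and -0.98 ± 0.19 in polysome RNA (adjusted p = 0.00047).

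Among the clock genes, the day-phase repressors fell or did not pass the test. The sample labels used here hold no time of day, and its part in these results was not tested. None of the 7 pseudo-response regulator genes of the PRR5 and PRR7 type rose in either fraction, and 4 fell in each (57.1%). Of all genes, 25.7% rose and 28.3% fell in total RNA, and 28.1% rose and 28% fell in polysome RNA. The single PRR5 gene, Niben101Scf11670g02004.1, had 50.5, 46.7 and 45.4 CPM in mock total RNA and 6.23, 6.72 and 5.97 CPM in heat total RNA. Polysome RNA showed the same picture, with 46.9, 40.6 and 40.9 CPM in mock and 2.34, 4.43 and 4.48 CPM in heat. The lowest mock library was several times above the highest heat library in each fraction, and the log2 change of PRR5 was -2.91 ± 0.18 in total RNA (adjusted p = 1.6e-09) and -3.50 ± 0.20 in polysome RNA (adjusted p = 5.6e-10). The PRR7 gene Niben101Scf05009g04012.1 had 123, 123 and 104 CPM in mock total RNA and 37.8, 38.4 and 39.3 CPM in heat total RNA. Its polysome levels were 31.7, 33.3 and 33.5 CPM in mock and 3.44, 8.55 and 5.98 CPM in heat. Its log2 change was -1.60 ± 0.19 in total RNA and -2.44 ± 0.22 in polysome RNA (adjusted p = 4.1e-06 and 1.5e-07). A second PRR7 gene, Niben101Scf00289g03009.1, had -1.15 ± 0.16 and -1.50 ± 0.19 (adjusted p = 1.6e-05 and 8.3e-06). The remaining PRR7 genes had at most 15.2 CPM in any library, and 1 of these 4 fell in both fractions. These 4 are 2 pairs of models, each pair on 1 scaffold, as are the GIGANTEA models Niben101Scf09649g01002.1 and Niben101Scf09649g01007.1 and 2 COP1 models, and whether a pair is 1 gene was not tested. Of 4 genes with the text of APRR2, a relative of the clock regulators that lacks an established clock role, 2 fell in total RNA (50%, against 28.3% of all genes) and 1 in polysome RNA (25%, against 28%). The 2 calls in total RNA were lost in 3 and 2 of the 12 fits with 1 library left out.

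**Figure D3:**
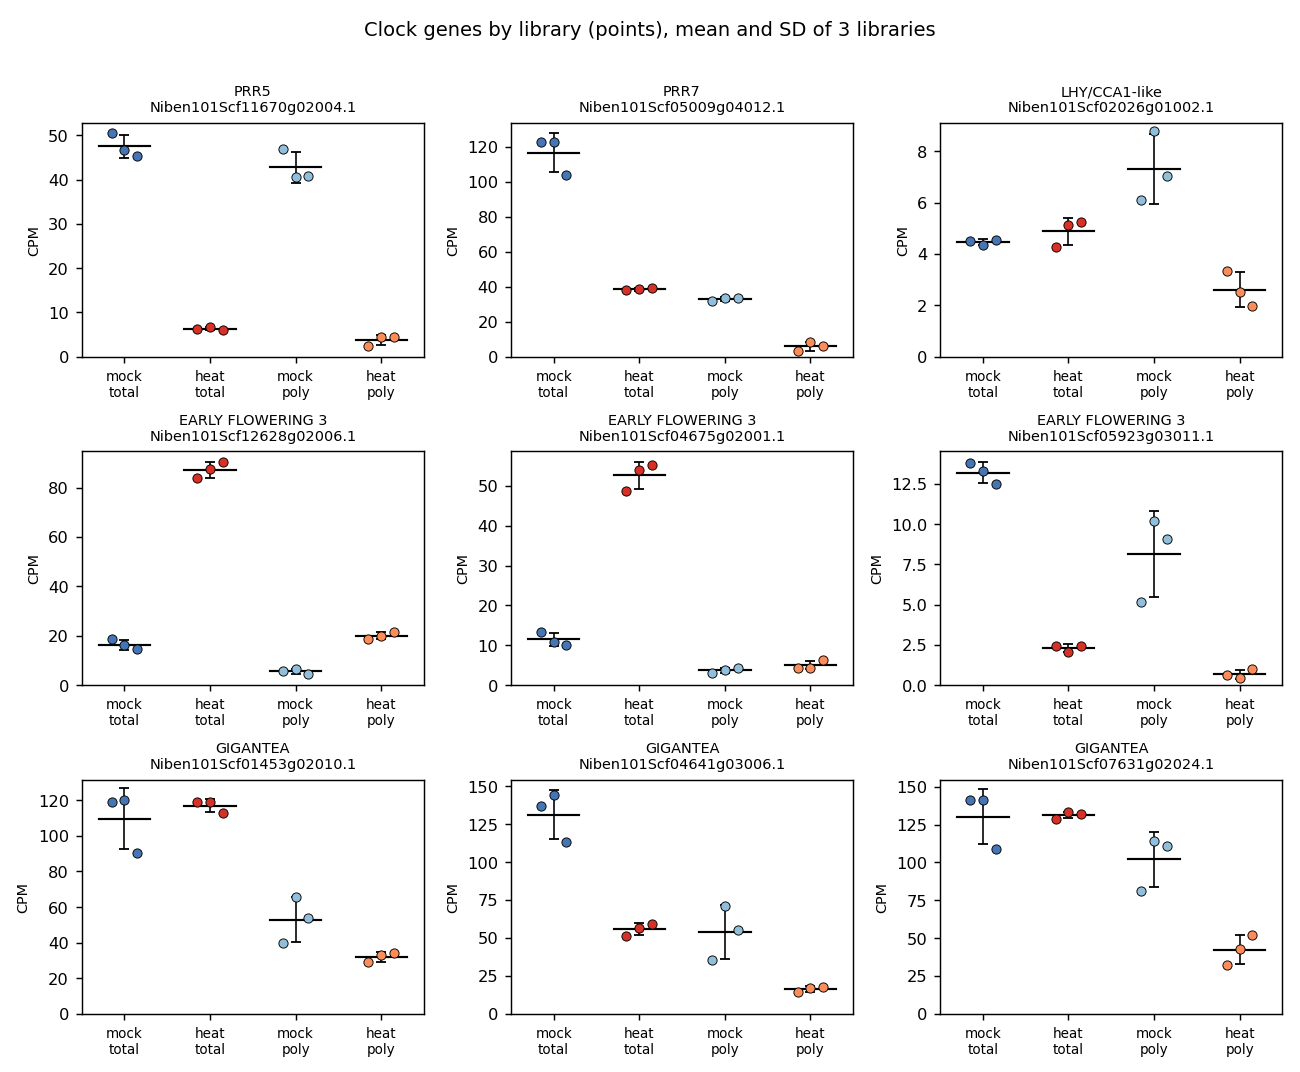
CPM of clock genes in each library (points), with the mean and SD of 3 libraries (bars) for the 4 groups. PRR5 and PRR7 are lower after heat in both fractions, while copies of ELF3 are higher or lower and GIGANTEA Niben101Scf07631g02024.1 is lower in polysome RNA alone by the test.

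The morning repressors were represented by 1 gene whose text names both LHY and CCA1, Niben101Scf02026g01002.1, called LHY here. In total RNA it had 4.5, 4.34 and 4.55 CPM in mock and 4.29, 5.13 and 5.24 CPM in heat, ranges that overlap, with a log2 change of 0.13 ± 0.21 (adjusted p = 0.62). In polysome RNA its 6.09, 8.78 and 7.05 CPM in mock were all above the 3.32, 2.53 and 1.99 CPM in heat. It fell there by 1.49 ± 0.23 (adjusted p = 5.9e-05).

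GIGANTEA, an evening protein that ties the clock to flowering, had 4 tested copies. Of these, 2 fell in total RNA (50%, against 28.3% of all genes) and 3 in polysome RNA (75%, against 28%). Niben101Scf04641g03006.1 had 137, 144 and 113 CPM in mock total RNA and 51.4, 56.3 and 59.4 CPM in heat total RNA, and fell by 1.24 ± 0.20 (adjusted p = 8.2e-05). Its polysome values of 35.3, 71 and 55.1 CPM in mock and 14.1, 17 and 17.6 CPM in heat did not overlap either, and it fell by 1.73 ± 0.21 (adjusted p = 4.8e-06). Niben101Scf07631g02024.1 differed from this copy in total RNA, where 141, 141 and 109 CPM in mock surrounded 129, 133 and 132 CPM in heat. Its log2 change was 0.01 ± 0.18 in total RNA (adjusted p = 0.96). Its polysome level went from 80.8, 114 and 111 CPM to 32.3, 43 and 52 CPM, without overlap, and fell by 1.26 ± 0.19 (adjusted p = 3.2e-05). Niben101Scf01453g02010.1 had the same order of groups, with 119, 120 and 90.1 CPM in mock total, 119, 119 and 113 CPM in heat total, 39.8, 65.5 and 53.6 CPM in mock polysome and 28.9, 32.8 and 33.9 CPM in heat polysome RNA. Only its polysome change passed the test, at -0.73 ± 0.18 (adjusted p = 0.0024), against 0.10 ± 0.17 in total RNA (adjusted p = 0.66). The fourth, Niben101Scf09649g01002.1, was at 2.94 CPM or less in every library, and its fall in total RNA (-1.13 ± 0.38, adjusted p = 0.019) was lost in 4 of the 12 fits with 1 library left out.

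ELF3, a scaffold of the evening complex, showed both directions among its 6 copies. In total RNA 3 rose (50%, against 25.7% of all genes) and 2 fell (33.3%, against 28.3%). In polysome RNA 1 rose (16.7%, against 28.1%) and 2 fell (33.3%, against 28%). Niben101Scf12628g02006.1 had 18.5, 16.2 and 14.5 CPM in mock total RNA and 83.7, 87.4 and 90.3 CPM in heat total RNA. Its polysome levels were 5.71, 6.64 and 4.7 CPM in mock and 18.7, 19.8 and 21.7 CPM in heat. All heat libraries were above all mock libraries, with rises of 2.41 ± 0.15 in total RNA (adjusted p = 1.8e-09) and 1.81 ± 0.16 in polysome RNA (adjusted p = 1.5e-07). Niben101Scf04675g02001.1 went from 13.4, 10.8 and 10.2 CPM to 48.8, 53.9 and 55.3 CPM in total RNA and rose by 2.20 ± 0.17 (adjusted p = 2.1e-08). In polysome RNA the same copy had 3.04, 3.74 and 4.37 CPM in mock and 4.43, 4.43 and 6.35 CPM in heat, and its change of 0.45 ± 0.21 missed the threshold (adjusted p = 0.081). Niben101Scf05923g03011.1 moved the other way, from 13.8, 13.3 and 12.5 CPM to 2.46, 2.03 and 2.44 CPM in total RNA. Its polysome values were 5.14, 10.2 and 9.07 CPM in mock and 0.615, 0.422 and 0.996 CPM in heat, and it fell by 2.51 ± 0.25 and 3.60 ± 0.34 (adjusted p = 4e-07 and 2.2e-07). Another copy that fell, Niben101Scf05272g00013.1, changed by -2.37 ± 0.38 in total RNA (adjusted p = 7.4e-05) and -2.70 ± 0.53 in polysome RNA (adjusted p = 0.00042). Niben101Scf09513g00033.1 rose by 0.61 ± 0.20 in total RNA (adjusted p = 0.015), a call lost without mock total library 7 and without libraries 6 and 7, where the change was 0.36 (adjusted p = 0.31).

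CONSTANS-like genes, zinc finger transcription factors of which CONSTANS itself is the founding member, made up 35 of the 94 members. The annotation gives a B-box zinc finger to 27 of them and a CCT domain, which binds DNA, to 26. Of the 31 tested, 4 rose (12.9%, against 25.7% of all genes) and 12 fell (38.7%, against 28.3%) in total RNA. In polysome RNA 8 rose (25.8%, against 28.1%) and 11 fell (35.5%, against 28%). In polysome RNA the largest rise was in a CONSTANS-LIKE 4 gene. Niben101Scf02868g02003.1 had 33.6, 31.3 and 25.9 CPM in mock total RNA and 124, 120 and 123 CPM in heat total RNA. Polysome RNA held 36.7, 39.3 and 35.1 CPM in mock and 651, 363 and 339 CPM in heat, where heat library 5 was highest. No values overlapped, and the gene rose by 2.01 ± 0.21 in total RNA (adjusted p = 9.4e-07) and 3.60 ± 0.23 in polysome RNA (adjusted p = 2.1e-09). Niben101Scf06454g02009.1, of the same text, went from 51.7, 52.4 and 46.2 CPM to 122, 119 and 121 CPM in total RNA and from 36.2, 42.8 and 35.1 CPM to 428, 235 and 217 CPM in polysome RNA. It rose by 1.27 ± 0.21 and 2.94 ± 0.22 (adjusted p = 9.7e-05 and 1.8e-08). Another copy, Niben101Scf19155g00005.1, had 38.1, 40.2 and 41.8 CPM in mock total RNA and 39.8, 37.9 and 37.6 CPM in heat total RNA, which overlap, with a log2 change of -0.06 ± 0.15 (adjusted p = 0.76). In polysome RNA it went from 26.7, 24.6 and 19.1 CPM to 76.6, 61.4 and 55.6 CPM and rose by 1.46 ± 0.16 (adjusted p = 1.2e-06). Of 4 tested CONSTANS-LIKE 16 genes, 2 rose in polysome RNA: Niben101Scf00577g12010.1 changed by 1.73 ± 0.15 in polysome RNA (adjusted p = 1.2e-07) and Niben101Scf00753g03018.1 by 1.25 ± 0.14 (adjusted p = 2e-06), while neither passed the test in total RNA (0.36 ± 0.15 and 0.20 ± 0.14, adjusted p = 0.05 and 0.25). The other two, Niben101Scf01518g02002.1 and Niben101Scf31945g00009.1, had polysome changes of 0.56 ± 0.33 and -0.48 ± 0.40 that did not pass (adjusted p = 0.16 and 0.33).

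**Figure D4:**
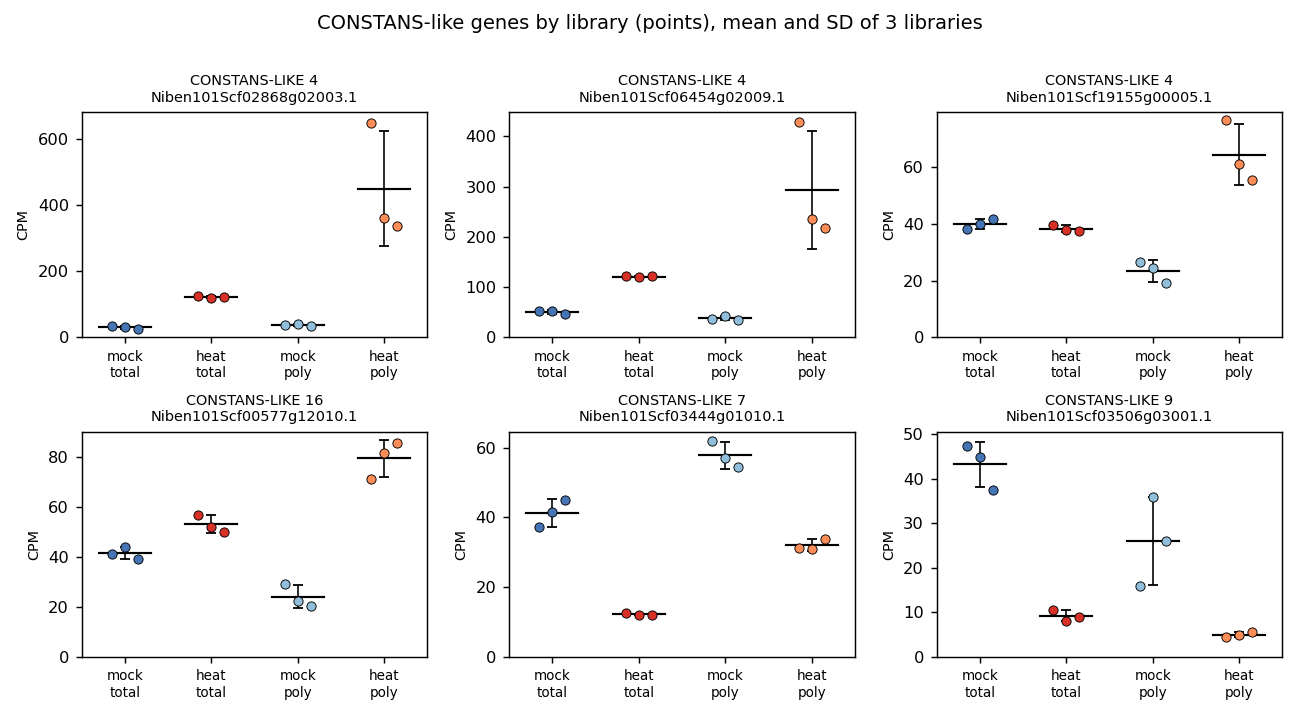
CPM of 6 CONSTANS-like genes in each library (points), with the mean and SD of 3 libraries (bars) for the 4 groups. The CONSTANS-LIKE 4 and CONSTANS-LIKE 16 genes are highest in heat polysome RNA, whereas CONSTANS-LIKE 7 Niben101Scf03444g01010.1 and CONSTANS-LIKE 9 Niben101Scf03506g03001.1 are lower after heat in both fractions.

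CONSTANS-LIKE 2 had a different shape. Niben101Scf02738g03013.1 went from 0.825, 1.59 and 1.35 CPM to 8.01, 10.8 and 8.59 CPM in total RNA and rose by 2.85 ± 0.29 (adjusted p = 6.4e-07). In polysome RNA it had 1.05, 0.916 and 0.895 CPM in mock and 1.48, 3.48 and 2.74 CPM in heat, a rise of 1.43 ± 0.36 (adjusted p = 0.0031). Among the genes that fell, CONSTANS-LIKE 9 Niben101Scf03506g03001.1 had 47.3, 45 and 37.6 CPM in mock total RNA and 10.6, 8.11 and 8.89 CPM in heat total RNA. Its polysome values were 16, 35.9 and 26.1 CPM in mock and 4.43, 4.96 and 5.6 CPM in heat. It fell by 2.23 ± 0.23 and 2.38 ± 0.25 (adjusted p = 6.9e-07 and 1e-06). CONSTANS-LIKE 7 Niben101Scf03444g01010.1 fell from 37.1, 41.4 and 45 CPM to 12.4, 12 and 12.1 CPM in total RNA (-1.76 ± 0.13, adjusted p = 1.8e-08). Its polysome level fell from 62, 57 and 54.3 CPM to 31.2, 30.9 and 33.9 CPM (-0.85 ± 0.13, adjusted p = 4e-05). Other copies did not pass the test in either fraction, such as CONSTANS-LIKE 7 Niben101Scf14771g01012.1, with 79.6 to 85.1 CPM in mock total and 72.1 to 79.5 CPM in heat total RNA. Reads of CONSTANS-LIKE 14 Niben101Scf01190g02016.1 numbered 46 above the lowest count over the 3 mock total libraries and 1 over the 3 heat total libraries, and 47 and 1 in polysome RNA. CONSTANS-LIKE 1 Niben101Scf06238g01014.1 had 35 and 2 such reads in total RNA and 37 and 1 in polysome RNA. Both genes are called lower in both fractions, and no fold is given for them because the heat groups hold so few reads.

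FT genes were low in these leaves, and libraries of one group differed widely. Of 4 tested, 1 fell in both fractions (25% in each, against 28.3% of all genes in total RNA and 28% in polysome RNA). Niben101Scf11126g02001.1 had 0.888, 1.12 and 1.15 CPM in mock total RNA and 0.114, 0.0634 and 0.244 CPM in heat total RNA, the latter from 4 reads above the lowest count. In polysome RNA it had 4.66, 5.96 and 8.4 CPM in mock and 0.369, 0.211 and 0.498 CPM in heat. Mock values were above heat values without overlap, and its log2 change was -2.82 ± 0.48 in total RNA (adjusted p = 0.00013) and -4.13 ± 0.42 in polysome RNA (adjusted p = 5.6e-07). A second FT gene, Niben101Scf08702g02005.1, had 4.25, 2.99 and 0.705 CPM in mock total RNA and 3.83, 3.55 and 2.56 CPM in heat total RNA. Its polysome values were 1.24, 16.3 and 10.3 CPM in mock, with library 2 far below the others, and 18.6, 14 and 14.2 CPM in heat. The groups overlapped in both fractions, and changes of 0.32 ± 0.62 and 0.73 ± 0.55 did not pass the test (adjusted p = 0.69 and 0.27). Niben101Scf00863g13007.1 also overlapped, with 2.76, 14.1 and 12.9 CPM in mock polysome RNA around 6.52, 5.49 and 6.72 CPM in heat polysome RNA, and Niben101Scf01519g10008.1 stayed at 1.68 CPM or less. Across members with a mean of at least 1 CPM, mock polysome library 2 was over 2-fold below both other libraries of its group in 7 of 79, and mock total library 7 in 4 of 80.

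The change in polysome RNA less the change in total RNA, tested as the interaction of heat and fraction, asks whether heat moved a transcript between ribosome-bound and total RNA (here translation efficiency, a log2 difference of changes). This contrast also sets libraries numbered 5 to 7 against those numbered 2 to 4. A difference between those sets of libraries cannot be told apart from translation efficiency. Of the 86 members 7 rose (8.14%, against 10.2% of all genes) and 10 fell (11.6%, against 8.42%), in all 19.8% against 18.6%, and 69 did not pass the test. All 7 that rose were CONSTANS-like genes, which had 7 rises and 1 fall among 31, and the other 55 members had 0 rises and 9 falls, counts given as a description of these members. Without mock total libraries 6 and 7, 5 of 89 tested members rose and 5 fell (5.62% each), against 3.77% and 2.91% of all genes in that fit. The share of members that rose was thus below that of all genes with every library and above it without the pair.

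Of 6 genes with the text of CONSTANS-LIKE 4, whether tested or not, 4 rose in this measure. The difference was 1.59 ± 0.29 in Niben101Scf02868g02003.1 (adjusted p = 0.0023), 1.68 ± 0.29 in Niben101Scf06454g02009.1 (adjusted p = 0.0017) and 1.52 ± 0.22 in Niben101Scf19155g00005.1 (adjusted p = 0.00053). The fourth gene of this text that rose, Niben101Scf02290g05019.1, had 0.86 ± 0.22 (adjusted p = 0.013), which became 0.67 when mock total libraries 6 and 7 were left out (adjusted p = 0.15). Of the CONSTANS-LIKE 16 genes 2 of 4 passed, with 1.37 ± 0.21 for Niben101Scf00577g12010.1 (adjusted p = 0.0008) and 1.05 ± 0.20 for Niben101Scf00753g03018.1 (adjusted p = 0.0026), against 0.97 for Niben101Scf01518g02002.1 and 0.05 for Niben101Scf31945g00009.1 (adjusted p = 0.15 and 0.96). CONSTANS-LIKE 7 Niben101Scf03444g01010.1 also rose in this measure although it fell in both fractions, with 0.91 ± 0.18 (adjusted p = 0.0036), and 0.75 without those 2 libraries (adjusted p = 0.061). The 1 CONSTANS-like fall was in CONSTANS-LIKE 2 Niben101Scf02738g03013.1, at -1.42 ± 0.47 (adjusted p = 0.048), a call that was lost in 10 of the 12 fits with 1 library left out (adjusted p = 0.064 to 0.11).

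The other 9 falls in efficiency were in 1 ELF3, 1 LHY and 2 GIGANTEA genes, 3 COP1-interacting genes, 1 SPA1-like gene and 1 cryptochrome gene. ELF3 Niben101Scf04675g02001.1 fell by 1.75 ± 0.27 (adjusted p = 0.00076), and COP1-interacting-like Niben101Scf04926g06004.1 by 1.75 ± 0.25 (adjusted p = 0.00055). LHY Niben101Scf02026g01002.1 fell by 1.61 ± 0.31 (adjusted p = 0.0031) and GIGANTEA Niben101Scf07631g02024.1 by 1.27 ± 0.26 (adjusted p = 0.0039). These 4 passed the test also without mock total libraries 6 and 7, with changes of -1.54, -1.82, -1.61 and -1.16 (adjusted p = 0.014, 0.0084, 0.032 and 0.044). COP1-interacting-like Niben101Scf04138g00002.1 kept its fall there as well, at -1.24 ± 0.27 with all libraries (adjusted p = 0.0064) and -1.38 without the pair (adjusted p = 0.033). The other 4 did not. GIGANTEA Niben101Scf01453g02010.1 had -0.83 ± 0.25 with all libraries (adjusted p = 0.029) and -0.73 without the pair (adjusted p = 0.16), and 8 of its 12 fits with 1 library left out lost the call. SPA1-like Niben101Scf00470g03014.1 had -1.41 ± 0.37 and then -0.89 (adjusted p = 0.016 and 0.11), and without heat polysome library 5 it had -1.30 (adjusted p = 0.053). Cryptochrome 1 Niben101Scf02751g04010.1 had -0.80 ± 0.20 and then -0.56 (adjusted p = 0.012 and 0.17), and COP1-interacting-like Niben101Scf03679g03018.1 had -1.81 ± 0.45 and then -1.63 (adjusted p = 0.013 and 0.099).

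Polysome RNA was also set against total RNA within each temperature. At 23 °C 13 members were higher in polysome RNA (15.1%, against 27% of all genes) and 35 lower (40.7%, against 27.2%), in all 55.8% against 54.2%, with a median log2 difference of -0.36 over the members and 0.002 over all genes. At 37 °C 16 were higher (18.6%, against 30.8%) and 42 lower (48.8%, against 28.4%), in all 67.4% against 59.1%, with medians of -0.79 and 0.07. The 2 comparisons use different libraries, and 28 members were lower and 7 higher in both, counts not made for all genes. When mock total libraries 6 and 7 were left out, 5 of 89 members were higher at 23 °C (5.62%, against 17.9% of all genes in that fit) and 32 lower (36%, against 19.2%).

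**Figure D5:**
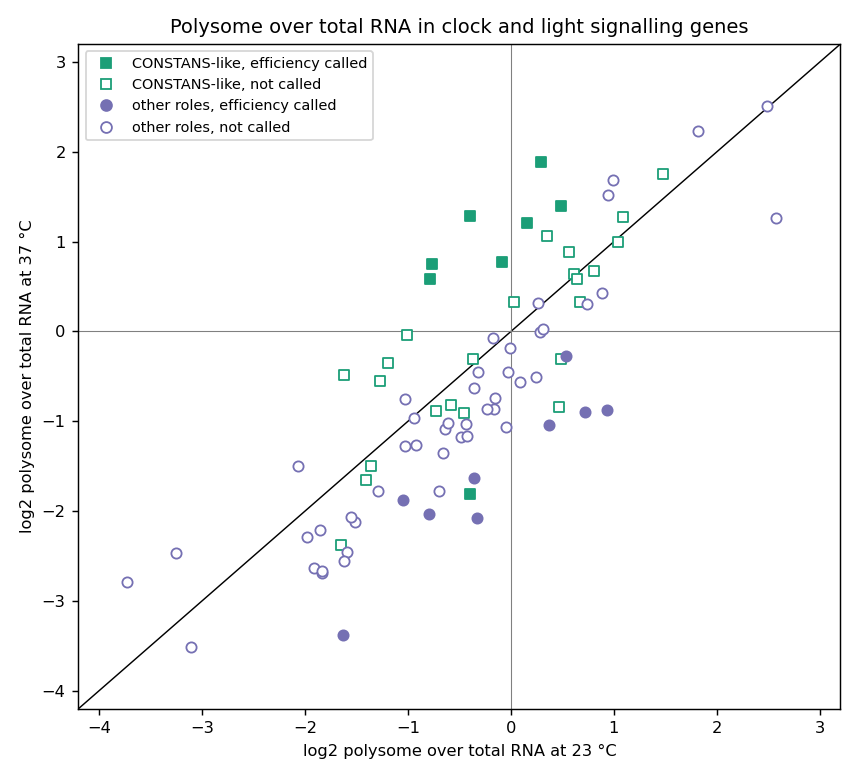
Log2 ratio of polysome to total RNA at 23 °C (horizontal) and at 37 °C (vertical) for each tested member (squares for CONSTANS-like genes, circles for other roles, filled where efficiency passed the test), with a diagonal of equal ratios. The 7 filled squares above the diagonal are the CONSTANS-like genes that rose in efficiency, and the filled circles lie below it.

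The clock genes were mostly under-represented in polysome RNA. Of 6 ELF3 copies 5 were lower at 23 °C and 5 at 37 °C, of 4 GIGANTEA copies 3 and 4, and of 7 PRR5 and PRR7 genes 4 and 5. Of all genes, 27.2% were lower at 23 °C and 28.4% at 37 °C. ELF3 Niben101Scf04675g02001.1 had a log2 difference of -1.63 ± 0.19 at 23 °C (adjusted p = 4.2e-06) and -3.38 ± 0.19 at 37 °C (adjusted p = 8.9e-09). ELF3 Niben101Scf12628g02006.1 had -1.51 ± 0.16 and -2.12 ± 0.15 (adjusted p = 1.6e-06 and 2.6e-08). PRR7 Niben101Scf00289g03009.1 had -1.86 ± 0.17 and -2.21 ± 0.19 (adjusted p = 3.4e-07 and 1.3e-07), whereas PRR5 Niben101Scf11670g02004.1 had -0.15 ± 0.16 at 23 °C, which did not pass (adjusted p = 0.44), and -0.74 ± 0.20 at 37 °C (adjusted p = 0.0052). LHY Niben101Scf02026g01002.1 was higher in polysome RNA at 23 °C (0.72 ± 0.21, adjusted p = 0.0088) and lower at 37 °C (-0.90 ± 0.23, adjusted p = 0.0037). The call for LHY at 23 °C was lost without mock total libraries 6 and 7 (0.70, adjusted p = 0.11).

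Of 31 CONSTANS-like genes, 6 were higher (19.4%, against 27% of all genes) and 11 lower (35.5%, against 27.2%) in polysome RNA at 23 °C. At 37 °C 12 were higher (38.7%, against 30.8%) and 7 lower (22.6%, against 28.4%). CONSTANS-LIKE 13 Niben101Scf00823g01006.1 had 41.2, 45.4 and 41.1 CPM in mock total and 112, 121 and 122 CPM in mock polysome RNA, and 37.2, 33.6 and 38.2 CPM in heat total and 121, 121 and 127 CPM in heat polysome RNA. It was higher in polysome RNA by 1.47 ± 0.13 at 23 °C (adjusted p = 2.2e-07) and 1.76 ± 0.13 at 37 °C (adjusted p = 3.3e-08), and it passed the test for heat in neither fraction. FT genes were higher in polysome RNA in 3 of 4 cases at each temperature, though not the same 3. Niben101Scf11126g02001.1 had a difference of 2.57 ± 0.33 at 23 °C (adjusted p = 9.2e-06) and 1.27 ± 0.64 at 37 °C, which did not pass (adjusted p = 0.11). Niben101Scf01519g10008.1 had 0.99 ± 0.51 at 23 °C (adjusted p = 0.11) and 1.69 ± 0.64 at 37 °C (adjusted p = 0.033), a call lost in 4 of the 12 fits with 1 library left out. In Niben101Scf00863g13007.1 and Niben101Scf08702g02005.1 it was 2.49 and 1.81 at 23 °C (adjusted p = 0.00082 and 0.018), but leaving out mock total libraries 6 and 7 gave 1.53 and 1.14 (adjusted p = 0.057 and 0.24). At 37 °C both were higher, by 2.51 ± 0.57 and 2.23 ± 0.58 (adjusted p = 0.0013 and 0.0037), and both calls were kept in all 12 fits with 1 library left out.

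Other genes of the pathway, matched by text, numbered 160, of which 147 were tested. In total RNA 23 of them rose (15.6%, against 25.7% of all genes) and 62 fell (42.2%, against 28.3%). In polysome RNA 30 rose (20.4%, against 28.1%) and 66 fell (44.9%, against 28%), and in efficiency 11 rose (7.48%, against 10.2%) and 10 fell (6.8%, against 8.42%). HY5, a light-response transcription factor that COP1 marks for destruction, was lower in the copy Niben101Scf15744g00003.1, from 10.3 ± 0.594 to 0.711 ± 0.22 CPM in total RNA (mean ± SD, n = 3) and from 35.9 ± 12.2 to 2.11 ± 0.788 CPM in polysome RNA. It fell by 3.84 ± 0.32 and 4.06 ± 0.30 (adjusted p = 6e-08 and 1.2e-08), while 4 of the 6 genes with HY5 text rose in total RNA. Of 40 genes of the NPH3 and RPT2 family, phototropism adaptors, 28 fell (70%) and 5 rose (12.5%) in total RNA, and 23 fell (57.5%) and 6 rose (15%) in polysome RNA. Of 15 phytochrome genes, red-light receptors, 5 fell (33.3%) and 1 rose (6.67%) in total RNA, and 8 fell (53.3%) and 3 rose (20%) in polysome RNA. Of 40 FAR1 and FHY3 genes, transcription factors of phytochrome A signalling, 16 fell (40%) and 4 rose (10%) in total RNA, and 22 fell (55%) and 4 rose (10%) in polysome RNA. Of 25 genes of DET1, COP10 and the COP9 signalosome, repressors of light development that work with COP1, 4 rose and 4 fell in total RNA (16% each), and 9 rose (36%) and 3 fell (12%) in polysome RNA. REVEILLE 8 Niben101Scf10228g00003.1, a clock activator related to LHY, fell by 1.06 ± 0.26 in total RNA (adjusted p = 0.0025) and by 1.60 ± 0.28 in polysome RNA (adjusted p = 0.00019). The gene with the text of phytochrome-interacting factor 4, Niben101Scf25765g00005.1, a growth regulator repressed by ELF3 in Arabidopsis, rose by 0.80 ± 0.18 in total RNA (adjusted p = 0.0013). In polysome RNA it did not pass (-0.14 ± 0.18, adjusted p = 0.53), and its efficiency fell by 0.93 ± 0.25 (adjusted p = 0.018). XAP5 CIRCADIAN TIMEKEEPER Niben101Scf16888g00020.1 rose by 1.23 ± 0.23 in total RNA (adjusted p = 0.00036).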

How the data were processed

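Total and polysome RNA of leaves was sequenced in 4 groups of 3 libraries, grouped by their titles. Per the submitters' processing notes, cutadapt, HISAT2, HTSeq 0.11.0 and DESeq were used. No build of the genome is named in the labels used, so genes carry no coordinates or sequences. Per the file headers the authors deposited raw counts per gene. They also deposited a signal, the counts divided by 1 size factor per library, and log2 ratios of group means of that signal. Tests used the counts alone. In every library the lowest count was 1, and no gene summed to less than 22 over the 12 libraries. Emptied lines, 2 in number, are not analysed here.

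Counts were tested in edgeR 4.0.16 (R 4.3.3) over the whole table with filterByExpr (minimum count 10), TMM scaling and quasi-likelihood fits of all 12 libraries, with 1 mean for each group. P-values were adjusted by Benjamini-Hochberg with a threshold of 0.05. Standard errors are log2 changes over the root of F. The fit was tested on simulated counts. Alternatives were RLE scaling, a mean of at least 5 CPM, no filter, an absolute log2 change over 1, counts less 1, the compared libraries alone, limma-voom (limma 3.58.1), DESeq2 1.42.0, each library left out, mock total libraries 6 and 7 left out together, and the title number as a block. Leaving out that pair leaves 1 mock total library, assumed to vary like the other groups. No 2 libraries of a group agreed within sampling noise, for which a chi-square per degree of freedom would be near 1. Between libraries of a group it was 1.729 to 2.105 in heat total and 9.92 to 20.8 in mock total RNA. For polysome RNA it was 18.58 to 34.89 in mock and 2.569 to 12.98 in heat. Heat total libraries were thus the most alike, while the fit uses 1 estimate of the spread per gene for all groups.

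Members, lists and marker texts were chosen with earlier results of these data known. By rule, text names every member of a role class with 4 or fewer tested genes. In larger classes it names the member with the highest mean CPM and the one with the smallest adjusted p in each direction of each heat comparison, and the 2 smallest each way in each comparison of fractions. Further members of the cryptochrome, COP1, COP1-interacting, ELF3 and CONSTANS-like classes were named after their values were seen, as was the pairing of models on 1 scaffold.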

Additional observations from a re-analysis of the deposited data

Results flagged for a closer look

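In 11 members named by rule, the heat change in polysome RNA differed from that in total RNA by the interaction term itself (edgeR's quasi-likelihood test, adjusted p under 0.05). The rule picks members partly by the smallest adjusted p in this same test, so their passing was partly set by that choice. Of all 86 tested members 19.8% passed, against 18.6% of all genes. The difference, polysome less total on the log2 scale, was positive in CONSTANS-LIKE 4 Niben101Scf02868g02003.1 (1.59), CONSTANS-LIKE 4 Niben101Scf19155g00005.1 (1.52) and CONSTANS-LIKE 7 Niben101Scf03444g01010.1 (0.91). It was negative in ELF3 Niben101Scf04675g02001.1 (-1.75), COP1-interacting-like Niben101Scf04926g06004.1 (-1.75), LHY Niben101Scf02026g01002.1 (-1.61), CONSTANS-LIKE 2 Niben101Scf02738g03013.1 (-1.42), SPA1-like Niben101Scf00470g03014.1 (-1.41), GIGANTEA Niben101Scf07631g02024.1 (-1.27), GIGANTEA Niben101Scf01453g02010.1 (-0.83) and cryptochrome 1 Niben101Scf02751g04010.1 (-0.80). With 1 library left out, CONSTANS-LIKE 2 lost its call in 10 of 12 fits, GIGANTEA Niben101Scf01453g02010.1 in 8 and the SPA1-like gene in 1. Without mock total libraries 6 and 7 the same genes had differences of -2.03, -0.73 and -0.89. CONSTANS-LIKE 7 then had 0.75 and cryptochrome 1 had -0.56. For polysome RNA, transcripts of plastid genome type summed to 6630 to 8100 CPM in mock and 7790 to 10200 CPM in heat. These sums carry the TMM factors, which were 0.791 to 0.963 in mock and 0.562 to 0.684 in heat polysome RNA. Without the factors the order was reversed, with sums of 5984 to 7329 CPM in mock and 5315 to 5709 CPM in heat. The part of plastid transcripts in the differences listed above was not tested.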

How the results depend on the processing

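Counts of members called kept within 1.5 times the reported count under every alternative run, with 3 exceptions. Members with lower efficiency went from 10 to 5 without mock total libraries 6 and 7. Members higher in polysome RNA at 23 °C went from 13 to 5 without that pair and to 6 with an absolute log2 change over 1. No called member changed sign in any refit. Fits with 1 library left out kept 37 of 45 calls in total RNA, 47 of 53 in polysome RNA, 14 of 17 in efficiency, 41 of 48 at 23 °C and 52 of 58 at 37 °C. Depth limits members with 3 or fewer reads above the lowest count in a group.

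The title number could be fitted as a replicate block for the mean heat effect over both fractions alone. With the block 14 members rose and 41 fell, against 14 and 44 without it (31.3% and 34.4% of all genes). Deviations from group means correlated between -0.08 and 0.05 for libraries of the same number, over 17086 genes. For libraries of different numbers they correlated between -0.05 and 0.10. Groups that share numbers differ in both treatment and fraction. These correlations therefore cannot tell whether equal numbers mean shared plants, or whether the sets of numbers differ.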
